A study of Homo sapiens with 16 samples.

Results

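Belinostat, a hydroxamate inhibitor of zinc-dependent histone deacetylases, was compared with its vehicle DMSO in colonic fibroblasts that had first been pulsed with inflammatory cytokines. The comparison held the 4 libraries labelled with the cytokine combination and belinostat (replicates 17 to 20) and the 4 labelled with the combination and DMSO (replicates 13 to 16, called vehicle here), 8 of the 16 libraries of the series. The libraries of each group were taken by their labels. The cells were Ccd18-Co, an established human line of colonic fibroblasts, and their RNA was sequenced. Both groups had received 3 pulses of a mix that held 10 ng/ml of each of TNF, OSM and IL-17A and 0.1 ng/ml of IL-1B, each pulse of 72 h followed by 96 h of recovery. After a rest of 1 week the cells were given DMSO or 250 nM belinostat for 5 days, and RNA was taken 2 weeks after the compound had been removed. These doses are those of the labels, while the study's supplement names a higher belinostat concentration for its assays and its methods a lower IL-1B concentration for the pulses. The other 8 libraries came from unstimulated cells given DMSO and from pulsed cells given GSK-J4. Ccd18-Co is a single line. A legend of the study calls the replicates of this experiment biological, while its methods speak of technical replicates of cytokine-treated and untreated cells. Whether they were separate cultures is not said, so p-values measured the spread between these libraries, which may be technical.

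Histone deacetylases remove acetyl groups from lysines of histones and other proteins, and acetylated histones mark open, transcribed chromatin. Inhibition of these enzymes raises histone acetylation while the compound is present, and transcripts can move in either direction. Fibroblasts of the gut wall make the collagens and proteases of the matrix, chemokines that draw leukocytes, and the WNT and BMP ligands and antagonists that position epithelial cells along the crypt.

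The table gave 14.4 to 18.3 M estimated counts in the belinostat libraries and 18.4 to 18.8 M in vehicle. In a principal component analysis of the 8 libraries (1000 genes of highest variance), component 1 separated the groups with 34.5% of the variance. Component 2, with 31.6%, separated belinostat replicate 17 from the other 7 libraries. Replicate 17 lay farthest from its group's median in 506 of the 889 genes called below (56.9%), and vehicle replicate 16 did so in 363 (40.8%). Without replicate 17 the number of calls was 1127, and without vehicle replicate 16 it was 664. Fibroblast markers were high in the libraries (VIM 41550 to 52770 normalized counts under belinostat and 46370 to 47990 in vehicle), and among markers of other cell types KRT20, MUC2, CDH5, CD3E, MS4A1, ITGAM and SOX10 stood at 0 in all 8. TEK, listed as an endothelial marker, was at 8565 to 10140 normalized counts under belinostat and 7681 to 8829 in vehicle, the leukocyte marker CD68 at 148 to 474 and 217 to 328, and the endothelial marker VWF at 18.7 to 28.1 and 13.3 to 27.7. The highest of the other epithelial, endothelial, leukocyte, glial and neuronal markers, CDH1, reached 14.5.

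**Figure D1:**
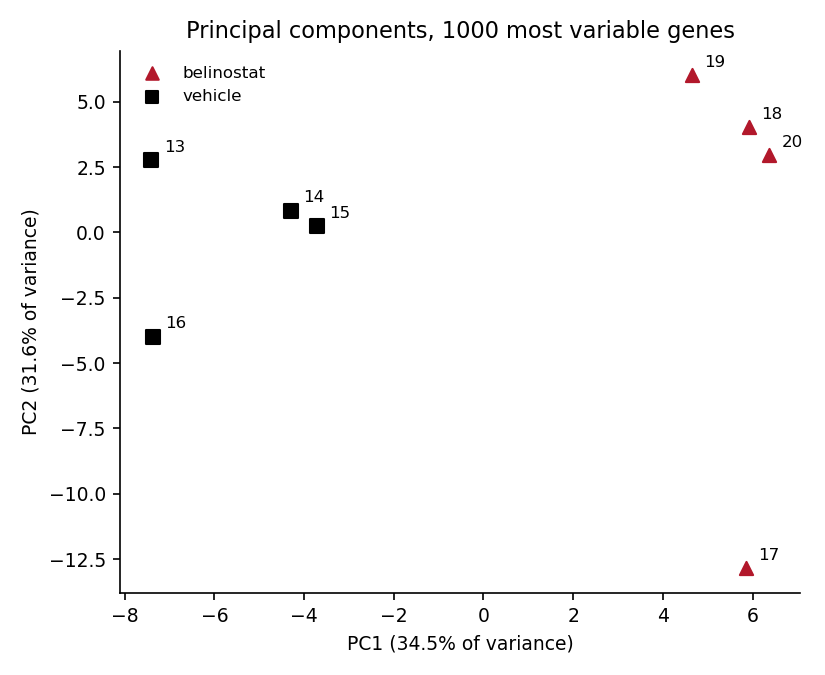
Principal components of the 8 libraries over the 1000 most variable genes on the variance-stabilised scale, with the share of variance on each axis. Triangles are belinostat libraries and squares vehicle libraries, numbered by replicate. The groups lie apart along the first component, and belinostat replicate 17 stands at -12.9 on the second, apart from the other libraries.

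In DESeq2's Wald test, 889 of 14209 tested genes (6.26%) were called at an adjusted p under 0.05, 444 higher (3.12%) and 445 lower (3.13%) under belinostat. Most calls were small: 675 were under 1.5-fold, 140 lay between 1.5-fold and 2-fold, and 74 (0.521% of tested genes) were beyond 2-fold, 36 higher and 38 lower. The median absolute fold change of a called gene was 1.28. Of the 7 falls and 3 rises beyond 4-fold, the largest fall belonged to an eosinophil chemokine gene, CCL11. The 4 belinostat and the 4 vehicle libraries did not overlap in 758 of the 889 called genes (85.3%), against 11.4% of all tested genes. A total of 494 calls (3.48% of tested genes), 245 higher and 249 lower, were made in the same direction under all 13 alternative fits. Each gene named below as risen or fallen is among them, unless the text says otherwise. Changes are given as log2 fold changes with their standard errors (SE), negative where belinostat was lower. Among protein-coding genes 6.73% were called, and among long noncoding RNAs 1.61%, 15 of 930.

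**Figure D2:**
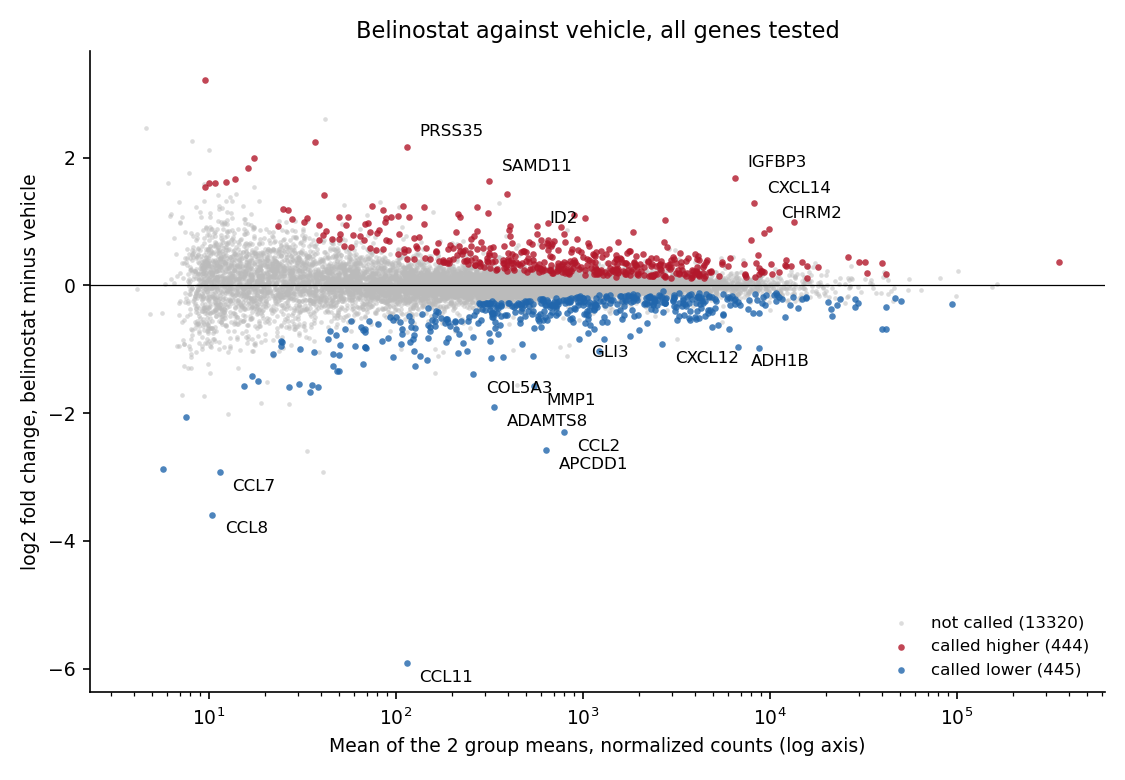
Log2 fold change of belinostat against vehicle (vertical axis) over the mean normalized count of the 2 groups (log axis) for all tested genes. Red points are the 444 genes called higher, blue the 445 called lower and grey the rest. Most called genes lie within 2-fold of 0, and CCL11 lies lowest at -5.92.

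Gene lists of 45 functional groups held 774 tested genes, of which 146 were called (18.9%), 48 higher and 98 lower. Calls were more frequent among highly expressed genes in general: when tested genes were ranked by their vehicle level and divided into 5 equal bins, 12.0% were called in the top bin and 2.25% in the lowest. In 22 lists members were called in both directions, in 13 only lower, in 2 only higher and in 8 not at all.

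**Figure D3:**
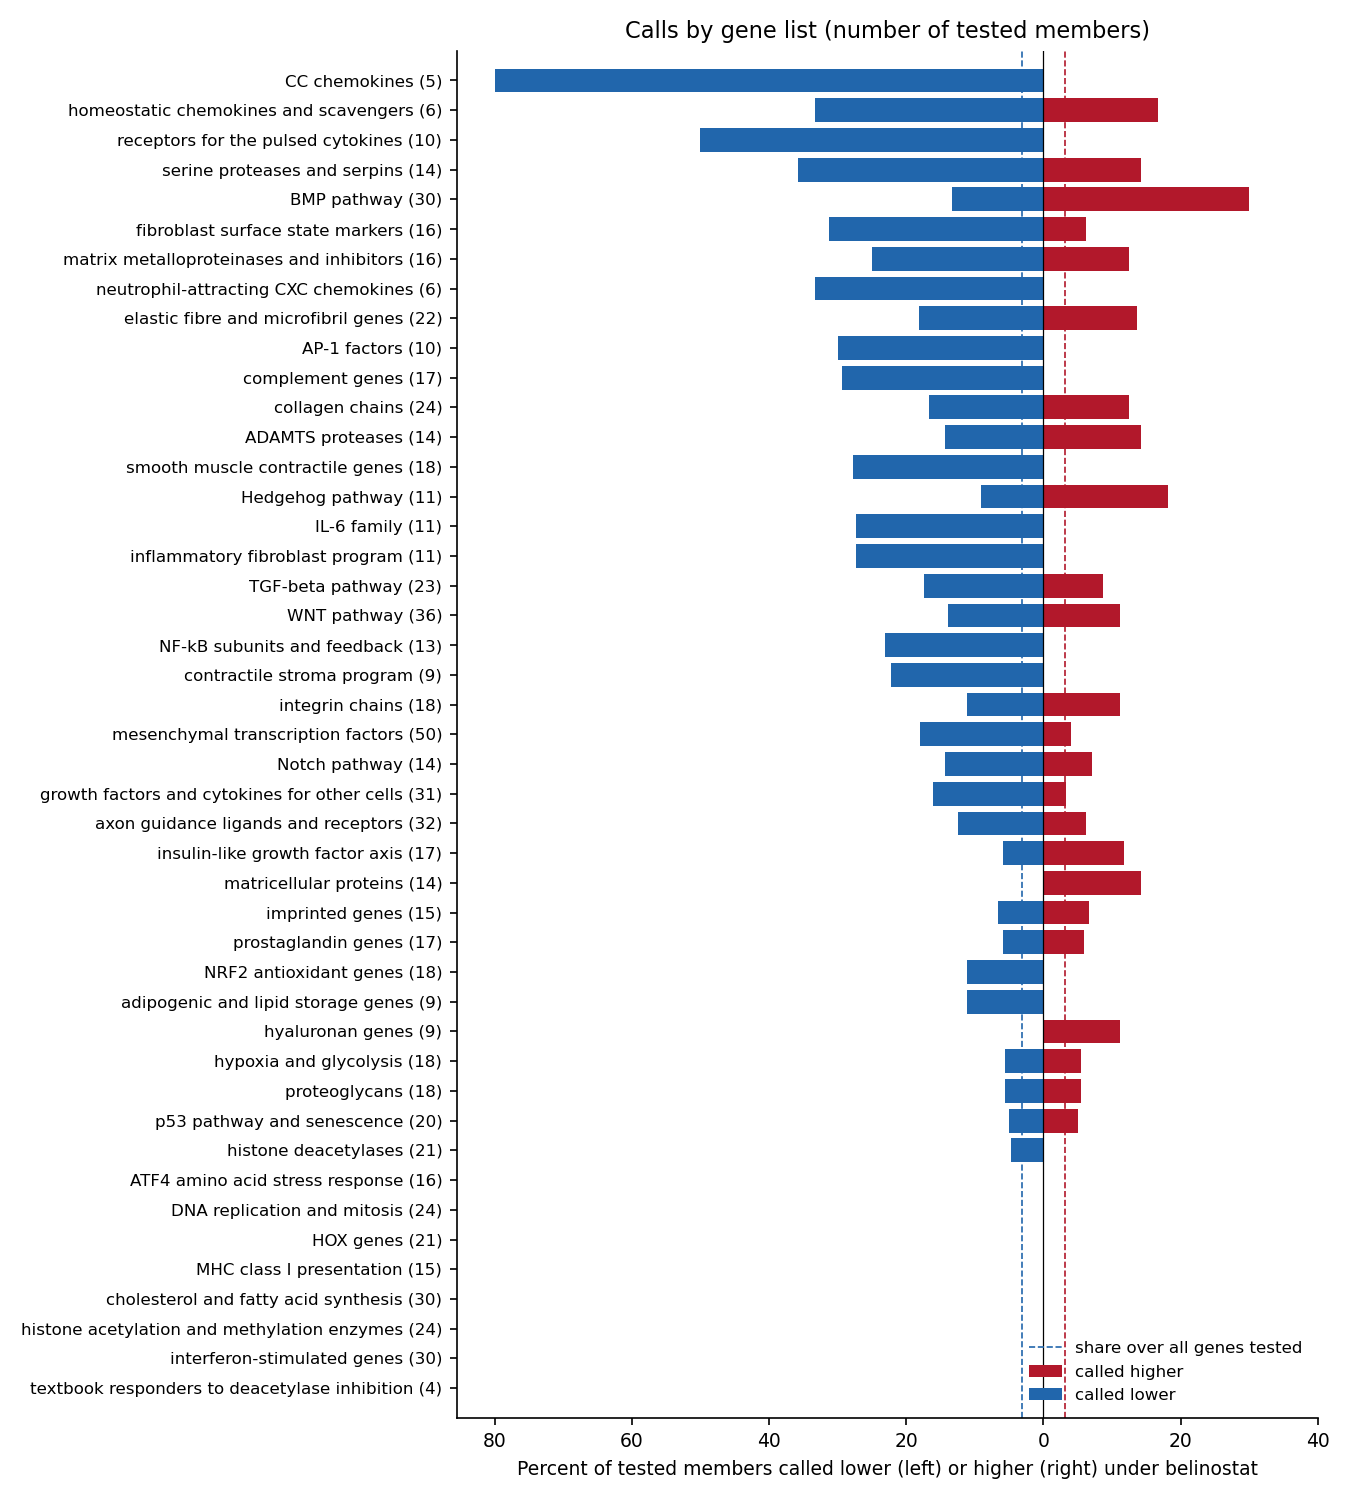
Percent of the tested members of each of 45 gene lists called higher (red, right) or lower (blue, left) under belinostat, with the number of tested members in brackets. Dashed lines give the shares over all tested genes, 3.12% higher and 3.13% lower. CC chemokines have the largest share of calls, 4 of 5, all lower.

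Chemokine genes fell at a cluster of 4 on the long arm of chromosome 17, while the homeostatic chemokines CXCL14 and CXCL12 went in opposite directions. Of 10 CC chemokine genes 5 were tested and 4 were called, all lower. CCL11 (ENSG00000172156.4, chromosome 17, 34285742 to 34288334, + strand), which encodes eotaxin, a chemokine for eosinophils, stood at 0.955, 4.88, 3.24 and 6.23 normalized counts in belinostat replicates 17 to 20 and at 263, 252, 184 and 204 in vehicle replicates 13 to 16. CCL11 was thus all but undetected in every belinostat library and well detected in every vehicle library. The log2 fold change was -5.92 (SE 0.44, adjusted p 5.21e-38), with a 95% interval of -6.77 to -5.06. CCL2 (ENSG00000108691.10, chromosome 17, 34255274 to 34257208, + strand), which encodes the monocyte chemokine MCP-1, was measured at 211, 332, 326 and 215 under belinostat and at 1411, 1354, 1125 and 1412 in vehicle. The groups were far apart, with a log2 fold change of -2.29 (SE 0.15, adjusted p 3.11e-49). CCL7, a related monocyte chemokine gene, gave 4.77, 3.66, 2.16 and 0 and 25.7, 20.1, 16.8 and 18.4 normalized counts, at -2.93 (SE 0.54, adjusted p 4.69e-06). CCL8, another of this family, gave 0, 1.22, 3.24 and 2.08 and 32.4, 13.4, 14.9 and 16.6, at -3.59 (SE 0.74, adjusted p 7.50e-05). Both CCL7 and CCL8 were low in vehicle already, and the libraries of the groups did not overlap in either. CCL8 was lost in none of the alternative fits but did not receive an adjusted p in all of them. The 4 genes are neighbours among the tested genes and span 64.2 kb from first to last start. The nearest tested genes outside them, TMEM98 at 1327 kb before the start of CCL2 and CCT6B at 673 kb after it, were not called.

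**Figure D4:**
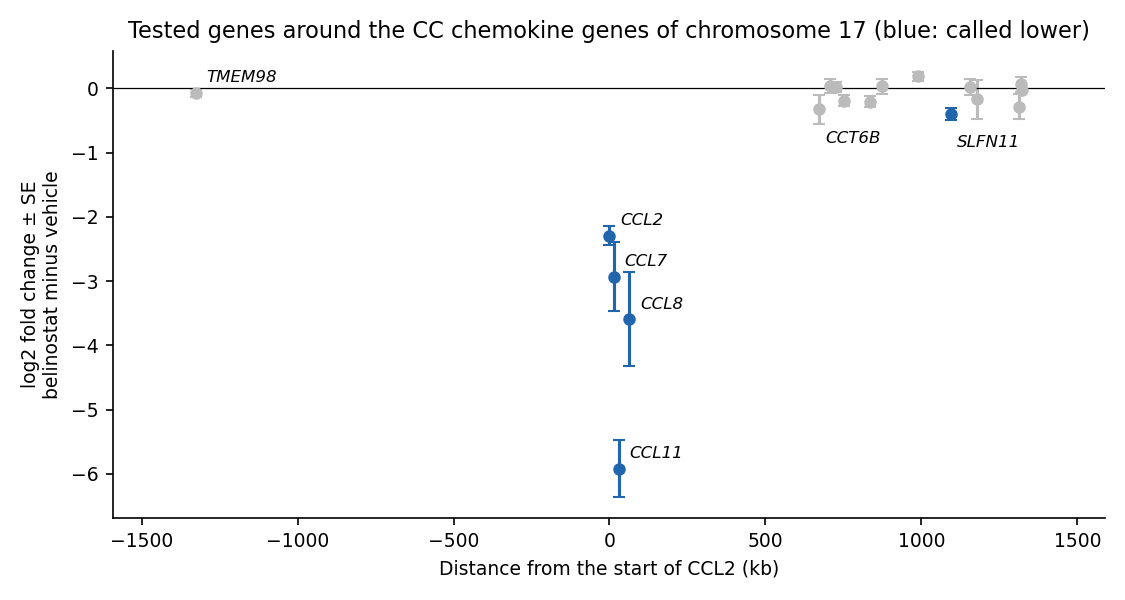
Log2 fold change ± SE of belinostat against vehicle for each tested gene within 1400 kb of the start of CCL2 on chromosome 17, plotted by the distance of its start from that of CCL2 in kb. Blue points were called lower and grey points were not called. The 4 CC chemokine genes lie between -2.29 and -5.92, and SLFN11, called lower at -0.40, is the only other call in the window.

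Promoter sequence was read for CCL7 and CCL8 of this cluster, for the chemokine genes CXCL12 and CXCL14, and for the prostaglandin synthase genes PTGES and PTGDS, since each of the last 2 pairs moved in opposite directions. The sequences are the 250 bases before the RefSeq start on GRCh38.p14, 5′ to 3′ on the strand of the gene, with matches to the AP-1 motif (TGANTCA, either strand) in capitals.
CCL7, chr17:34269971-34270220, + strand: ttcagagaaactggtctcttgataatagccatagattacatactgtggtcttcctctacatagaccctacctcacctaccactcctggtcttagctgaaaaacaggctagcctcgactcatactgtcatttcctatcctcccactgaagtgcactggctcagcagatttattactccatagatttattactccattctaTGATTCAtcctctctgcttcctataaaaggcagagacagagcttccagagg
CCL8, chr17:34319185-34319434, + strand: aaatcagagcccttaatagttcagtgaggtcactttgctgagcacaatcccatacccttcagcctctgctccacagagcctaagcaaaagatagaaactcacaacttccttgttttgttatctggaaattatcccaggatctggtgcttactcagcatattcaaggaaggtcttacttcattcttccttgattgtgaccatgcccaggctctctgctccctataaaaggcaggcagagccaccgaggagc
CXCL12, chr10:44385098-44385347, - strand: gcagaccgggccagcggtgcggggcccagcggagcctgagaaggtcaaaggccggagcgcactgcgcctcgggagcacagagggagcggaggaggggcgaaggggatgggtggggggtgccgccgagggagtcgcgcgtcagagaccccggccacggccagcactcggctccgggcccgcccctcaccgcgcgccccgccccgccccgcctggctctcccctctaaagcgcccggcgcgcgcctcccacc
CXCL14, chr5:135578992-135579241, - strand: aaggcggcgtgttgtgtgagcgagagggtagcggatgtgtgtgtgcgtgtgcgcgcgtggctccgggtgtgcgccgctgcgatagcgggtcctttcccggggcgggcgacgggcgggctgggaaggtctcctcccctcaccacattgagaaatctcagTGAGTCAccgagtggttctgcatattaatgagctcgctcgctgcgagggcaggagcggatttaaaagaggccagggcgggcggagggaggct
PTGES, chr9:129753043-129753292, - strand: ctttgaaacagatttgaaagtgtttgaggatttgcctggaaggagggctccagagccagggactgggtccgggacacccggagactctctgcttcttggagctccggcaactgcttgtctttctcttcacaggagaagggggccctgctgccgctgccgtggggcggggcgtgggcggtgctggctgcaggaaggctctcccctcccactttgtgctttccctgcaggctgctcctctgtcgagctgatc
PTGDS, chr9:136977254-136977503, + strand: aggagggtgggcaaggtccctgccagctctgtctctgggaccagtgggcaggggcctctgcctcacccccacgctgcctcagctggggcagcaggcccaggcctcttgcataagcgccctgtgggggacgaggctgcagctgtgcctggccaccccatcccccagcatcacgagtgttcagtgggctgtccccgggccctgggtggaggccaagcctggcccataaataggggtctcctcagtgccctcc
An AP-1 match lay 51 bases before the RefSeq start of CCL7 and another lay 92 bases before that of CXCL14. The other 4 windows held none. The windows of CXCL12, CXCL14 and PTGDS lie inside these genes as annotated in GENCODE, which starts them farther upstream. A match describes letters only. Among the 11214 windows of tested genes 3.86% held the motif, among the 339 of genes called lower 6.19%, and among the 348 of genes called higher 2.87%. The E-box letters CANNTG, searched the same way, were in 52.9%, 50.7% and 52.6% of these windows.

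CXCL14 (ENSG00000145824.13, chromosome 5, 135570679 to 135579279, - strand) stood at 12510, 11670, 8961 and 13860 normalized counts under belinostat and 3738, 4805, 4915 and 5782 in vehicle, a rise of 1.29 (SE 0.14, adjusted p 3.86e-16). Its level was higher in the lowest belinostat library than in the highest vehicle library. CXCL12, the ligand of CXCR4 that retains leukocytes in tissue, went the other way, from a range of 3067 to 4133 in vehicle to one of 1499 to 2386 under belinostat, at -0.92 (SE 0.13, adjusted p 1.80e-09). ACKR3, which encodes a scavenger of CXCL12, was called at -0.28, but 10 of the 13 alternatives lost this call. Of the 6 neutrophil-attracting CXC chemokines 2 were called, both lower, and all 6 had negative values. CXCL1 fell from a range of 2997 to 4904 in vehicle to one of 2368 to 2774 under belinostat, at -0.54 (SE 0.13, adjusted p 0.000902). CXCL8 stood at 271, 198, 243 and 228 under belinostat and 287, 319, 369 and 609.5 in vehicle, at -0.75 (SE 0.21, adjusted p 0.00973). The vehicle value of CXCL8 was widest in replicate 16, without which the value was -0.47 and not called. It was also not called without belinostat replicate 18 (-0.68) or in limma-voom (-0.68). CXCL2, CXCL3, CXCL5 and CXCL6 had log2 fold changes of -0.69, -0.36, -0.38 and -0.37, with adjusted p of 0.185 or more. Without vehicle replicate 16 these 4 values were -0.43, -0.19, -0.19 and -0.17. CXCL1, CXCL2 and CXCL3 are close paralogs, and the estimated counts divide the reads they share.

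**Figure D5:**
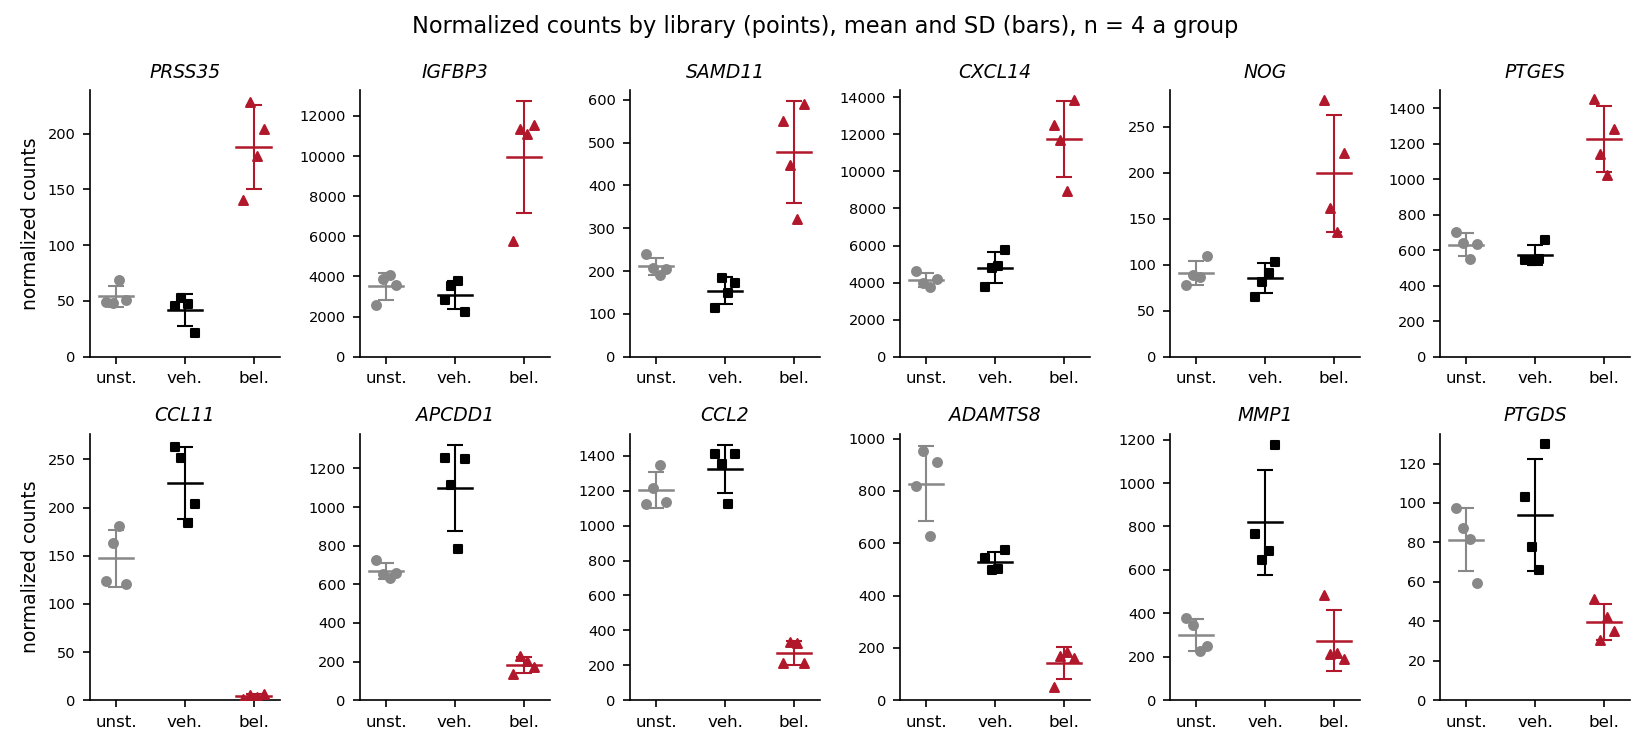
Normalized counts of 12 genes in unstimulated (grey circles), vehicle (black squares) and belinostat (red triangles) libraries, 4 each, with the mean as a line and the SD as bars, on linear axes from 0. The upper row shows genes called higher and the lower row genes called lower, and the belinostat and vehicle libraries do not overlap in any of the 12.

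Secreted proteases and their inhibitors held the largest rise of the named genes and several of the largest falls. PRSS35 (ENSG00000146250.7, chromosome 6, 83512534 to 83525704, + strand), which encodes a secreted protein of the serine protease family, stood at 140.3, 228, 180.2 and 204 normalized counts under belinostat and 45.7, 52.7, 47.5 and 21.2 in vehicle. It rose by 2.17 (SE 0.24, adjusted p 2.00e-16), the largest rise under the rule for named genes. SERPINE2, an inhibitor of thrombin and plasminogen activators, rose by 0.43 (SE 0.078). PLAT, the tissue plasminogen activator, fell from a range of 10320 to 13070 in vehicle to one of 4959 to 7139 under belinostat, at -0.99 (SE 0.12, adjusted p 1.85e-14). SERPINF1, the secreted pigment epithelium-derived factor, fell by about as much, at -1.02 (SE 0.093), and HTRA3, another secreted serine protease gene, was at -0.57 (SE 0.12). Of 14 tested serine protease and serpin genes 2 rose and 5 were called lower, and the call of SERPINH1 (-0.15) was lost in 9 of the alternatives.

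Among 16 matrix metalloproteinases and inhibitors, 2 were called higher and 4 lower. MMP1 (ENSG00000196611.6, chromosome 11, 102789401 to 102798160, - strand), the interstitial collagenase, stood at 482, 211, 216 and 189 under belinostat and 767, 648, 687 and 1174 in vehicle, a change of -1.57 (SE 0.31, adjusted p 2.17e-05). Belinostat replicate 17 was far above the other 3, and without it the value was -2.0. MMP3, stromelysin 1, had 1140, 400.5, 457 and 324 and 1063, 905, 972 and 1498 normalized counts, and at -0.93 (SE 0.36, adjusted p 0.119) it was not called. In replicate 17 MMP3 was within the vehicle range, and the other 3 belinostat libraries lay below it. Without replicate 17 the change was -1.49 and was called. MMP11 rose by 0.38 (SE 0.09). The calls of MMP14, MMP2, TIMP3 and RECK, between -0.19 and 0.15, were each lost in at least 1 alternative. Of 14 ADAMTS proteases 2 were called higher and 2 lower. ADAMTS8 (ENSG00000134917.10, chromosome 11, 130404923 to 130428609, - strand) fell from 542, 499, 502 and 574 to 51.5, 167, 184 and 163, at -1.91 (SE 0.28, adjusted p 2.27e-09). Replicate 17 was the lowest of the belinostat libraries by a wide margin, and without it the change was -1.62. ADAMTS9, which cleaves the proteoglycans aggrecan and versican, fell, at -0.57 (SE 0.056). ADAMTS19 rose by 0.49 (SE 0.12), and the call of the aggrecanase ADAMTS5 at 0.44 was lost in 4 alternatives. CST1, a secreted inhibitor of cysteine proteases, fell from 122, 142, 138 and 320 to 82.1, 69.6, 57.2 and 90.3, at -1.27 (SE 0.29, adjusted p 0.000617). Vehicle replicate 16 was far above the other 3, and without it the change was -0.84.

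Matrix genes changed in both directions within the same families. Of 24 tested collagen chains 3 rose, 4 were called lower and 17 were not called, with a median log2 fold change of -0.037 against 0.0029 over all tested genes. COL6A1 and COL6A2, neighbours on chromosome 21 whose chains assemble into the beaded filaments of type VI collagen, fell together. COL6A1 was at 29110 to 34010 under belinostat and 50420 to 53200 in vehicle, at -0.69 (SE 0.063, adjusted p 6.87e-25), and COL6A2 at 29980 to 31610 and 47360 to 51080, at -0.68 (SE 0.051, adjusted p 2.69e-36). The 2 sets of libraries were well apart in both genes. COL5A3, a chain of fibrillar type V collagen, stood at 107, 149, 132 and 189 and 337, 408, 374 and 392, a log2 fold change of -1.39 (SE 0.15, adjusted p 1.87e-18). The chains of basement membrane collagen COL4A1 and COL4A2, which share a promoter region on chromosome 13, rose by 0.28 (SE 0.068) and 0.20 (SE 0.053). COL11A1, a minor fibrillar chain, rose by 0.68 (SE 0.14). COL1A1 was called lower at -0.29 but not in edgeR or limma-voom. The fibrillar chains COL1A2 and COL3A1 were not called, at -0.04 (SE 0.044) and -0.16 (SE 0.059).

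Elastic fibre genes were divided likewise. FBLN2, a fibulin of elastic fibres and basement membranes, rose by 0.70 (SE 0.11) and LTBP1, which anchors latent TGF-beta in the matrix, by 0.38 (SE 0.068). FBLN1 fell, at -0.48 (SE 0.094), the crosslinking enzyme gene LOXL1 at -0.46 (SE 0.12), LTBP4 at -0.38 (SE 0.067) and EMILIN1 at -0.35 (SE 0.068). ELN, elastin itself, stood at 80.2, 242, 207 and 111 under belinostat and 78.0, 51.7, 116 and 59.9 in vehicle. These libraries overlapped, and the call at 1.06 was lost in 7 alternatives. TNXB, a tenascin of collagen networks, was at 761, 1628, 1743 and 1422 and 800.5, 572, 723 and 582, at 1.05 (SE 0.27, adjusted p 0.00384). The call held in each alternative although replicate 17 lay within the vehicle range, and without that replicate the change was 1.26. The counts of TNXB may share reads with a pseudogene copy. Of 18 proteoglycan genes BGN, biglycan, fell, at -0.56 (SE 0.10), and GPC4 was called higher at 0.29, a call lost in 2 alternatives. CD44, the hyaluronan receptor, rose by 0.30 (SE 0.06), and the integrin gene ITGB5 fell, at -0.19 (SE 0.044).

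Growth factor and morphogen genes held several of the larger changes. In the WNT pathway 4 of 36 tested genes rose and 5 were called lower. APCDD1 (ENSG00000154856.13, chromosome 18, 10454635 to 10489949, + strand), a membrane-bound inhibitor that binds WNT and its receptors, stood at 134, 229.6, 202 and 170.3 under belinostat and 1253, 1112, 782 and 1246 in vehicle. Every belinostat library lay far below the lowest vehicle library, and the change was -2.58 (SE 0.17, adjusted p 3.05e-48). NKD2, an inhibitor inside the cell, fell, at -0.68 (SE 0.069), the ligand gene WNT5B at -0.49 (SE 0.10) and RSPO1, an R-spondin that strengthens WNT signals, at -0.48 (SE 0.12). DKK1, a secreted inhibitor of WNT co-receptors, was at 48.7, 63.5, 77.7 and 80.0 under belinostat and 29.5, 41.2, 28.9 and 28.6 in vehicle, a rise of 1.07 (SE 0.25, adjusted p 0.00102). The receptor genes FZD8, FZD4 and FZD6 rose by 0.54, 0.42 and 0.32. WNT4 was called at -0.96, and the call was lost without vehicle replicate 16 (-0.74). The inhibitors APCDD1 and NKD2 and the inhibitor DKK1 thus went in opposite directions.

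BMP pathway genes were called in 13 of 30 tested, 9 higher and 4 lower. NOG, noggin, a secreted trap for BMP ligands, stood at 279, 161, 136 and 221 under belinostat and 64.7, 81.5, 91.3 and 103 in vehicle, a rise of 1.23 (SE 0.21, adjusted p 1.12e-06). The ID genes, direct targets of BMP signalling that encode inhibitors of basic helix-loop-helix factors, rose together. ID2 was at 577 to 867 under belinostat and 369.9 to 465 in vehicle, at 0.81 (SE 0.12, adjusted p 1.67e-09). ID1 was at 291 to 449 and 168 to 266, at 0.67 (SE 0.18, adjusted p 0.00441), and ID3 at 1236 to 1411 and 834 to 1188, at 0.47 (SE 0.10, adjusted p 0.000220). In none of the 3 did the groups overlap. The receptor gene BMPR2 rose by 0.33 (SE 0.061) and SMAD9, a signal transducer of the pathway, by 0.33 (SE 0.072), whereas SMAD1, another transducer, fell, at -0.50 (SE 0.094). The secreted antagonists CHRD and BMPER fell, at -0.53 (SE 0.13) and -0.66 (SE 0.15). The calls of SMAD7 (0.33), BMP2 (0.32) and BMP4 (-0.46) were each lost in at least 1 alternative. Without belinostat replicate 17 BMP4 was at -0.27. The call of SMAD7 was lost only without vehicle replicate 13, at 0.30. BMP2 in belinostat replicate 17 was at 2512 normalized counts against 1681 to 1796 in the other 3, and its call was lost without that replicate (0.17).

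In the TGF-beta pathway, the receptor genes TGFBR2 and TGFBR3 fell, at -0.43 (SE 0.079) and -0.41 (SE 0.088), and 4 other calls among the 23 tested genes were lost in at least 1 alternative. Of 11 Hedgehog genes GLI3, a transcription factor of the pathway that is often its repressor, fell from a range of 1162 to 1316 in vehicle to one of 593 to 731 under belinostat, at -0.83 (SE 0.11, adjusted p 3.61e-11). GLI2 was called higher at 0.35, a call lost in 5 alternatives, and the target genes GLI1 and PTCH1 were not called, at 0.71 (SE 0.25) and 0.22 (SE 0.15). The Notch ligand gene DLL1 fell, at -0.82 (SE 0.12), and the coactivator MAML2 rose by 0.26 (SE 0.068).

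Of 31 tested genes for growth factors and cytokines 6 were called (19.4%, against 6.26% of all tested genes). Of these, 5 were lower (FGF10, TSLP, PDGFD, CSF1 and HGF) and FGF2 was higher. The calls of HGF and FGF2 were not made in all alternatives. FGF10, an epithelial growth factor of embryonic mesenchyme, stood at 20.1, 13.4, 11.9 and 16.6 under belinostat and 35.2, 45.0, 47.5 and 54.4 in vehicle, at -1.54 (SE 0.27, adjusted p 1.45e-06). TSLP, a cytokine that primes dendritic cells, was at 219.6, 151, 133 and 148 and 279.8, 237, 245 and 342, a log2 fold change of -0.76 (SE 0.19, adjusted p 0.00264). Neither gene showed overlap between the groups. PDGFD fell, at -0.51 (SE 0.065) and CSF1, the macrophage growth factor, at -0.28 (SE 0.055). In the insulin-like growth factor axis IGFBP3 (ENSG00000146674.16, chromosome 7, 45912245 to 45921874, - strand), a secreted carrier of these factors, was at 5769, 11340, 11120 and 11570 under belinostat and 2847, 3504, 3785 and 2234 in vehicle. It rose by 1.69 (SE 0.23, adjusted p 3.61e-11), with replicate 17 the lowest of the belinostat libraries, and without that replicate by 1.88. IGFBP5, a related carrier, rose by 0.37 (SE 0.066).

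Of 10 tested receptor genes for the pulsed cytokines 5 were called, all lower. IL1R1, the signalling receptor of IL-1, stood at 4345, 3189, 3105 and 2659 under belinostat and 4944, 4373, 4321 and 5020 in vehicle, at -0.49 (SE 0.12, adjusted p 0.000920). Its ranges overlapped only through replicate 17, which lay just above the lowest vehicle library. TNFRSF1A, the widely expressed TNF receptor, fell, at -0.21 (SE 0.037). The calls of TNFRSF1B (-0.47), IL6ST (-0.21) and OSMR (-0.16) were each lost in at least 3 alternatives. Of 13 NF-kB genes 3 were called, all lower: BCL3, a nuclear cofactor, at -0.48 (SE 0.066) and the subunit gene NFKB2 at -0.32 (SE 0.082) held in each alternative, and NFKB1 at -0.17 did not. AP-1 genes JUNB and JUN fell, at -0.44 (SE 0.092) and -0.28 (SE 0.064). The 3 calls in the IL-6 family, SOCS3 (-0.26) with the receptor genes IL6ST and OSMR, were all lower and all lost in at least 1 alternative. NOD1, a sensor of bacterial peptidoglycan inside the cell, stood at 59.2, 80.6, 134 and 89.3 and 238, 191, 198 and 184, a log2 fold change of -1.16 (SE 0.18, adjusted p 1.03e-08). The groups did not overlap in NOD1.

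Prostaglandin genes gave 2 calls of 17 (11.8%, against 6.26% of all tested genes), in opposite directions. PTGES (ENSG00000148344.11, chromosome 9, 129738331 to 129753042, - strand), which makes prostaglandin E2 from prostaglandin H2, was at 1452, 1143, 1024 and 1281 normalized counts under belinostat and 546, 540.4, 550.5 and 657 in vehicle, a rise of 1.09 (SE 0.11, adjusted p 3.95e-22). PTGDS (ENSG00000107317.13, chromosome 9, 136975092 to 136981742, + strand), which makes prostaglandin D2 from the same precursor, was at 51.5, 30.5, 42.1 and 35.3 and 103, 77.6, 66.1 and 130, a log2 fold change of -1.23 (SE 0.26, adjusted p 8.75e-05). Neither pair of groups overlapped. The cyclooxygenase genes PTGS1 and PTGS2, which supply the precursor, were not called, at 0.30 (SE 0.24) and -0.45 (SE 0.31), and both were highest in belinostat replicate 17. Without that replicate PTGS2 was called lower, at -1.05. Complement genes were called lower in 5 of 17 tested, with none higher and a median log2 fold change of -0.33 against 0.0029 over all tested genes. C4B fell, at -0.60 (SE 0.15), C2 at -0.43 (SE 0.091), the regulator CD55 at -0.36 (SE 0.059) and the protease gene C1S at -0.24 (SE 0.043). C3, the central component, was called at -0.62 but lost in 5 alternatives. C4B has a near-identical copy, C4A, so its value is uncertain in a way the SE does not hold.

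Transcription factor genes of gut mesenchyme were called in 11 of 50 tested, 2 higher and 9 lower. PRRX2 rose by 0.66 (SE 0.14) and TBX3 by 0.53 (SE 0.083). NR2F1 fell from a range of 5661 to 6997 in vehicle to one of 3470 to 4040 under belinostat, at -0.65 (SE 0.075, adjusted p 1.89e-15), BNC2 at -0.47 (SE 0.11) and HIC1 at -0.45 (SE 0.098). The other 6 calls, all lower and between -0.33 (TWIST2) and -0.18 (NR2F2), were each lost in at least 1 alternative. Among 18 smooth muscle contractile genes 5 fell and none rose. ACTG2 was at 3487 to 4424 under belinostat and 6146 to 6808 in vehicle (-0.63 (SE 0.12, adjusted p 1.91e-05)), and ACTA2, alpha smooth muscle actin, at 8967 to 10520 and 13240 to 16090 (-0.50 (SE 0.11, adjusted p 0.000570)). The focal adhesion gene VCL, SRF, whose product drives muscle genes, and TGFB1I1 fell, at -0.18, -0.20 and -0.25. TAGLN, CNN1 and MYH11, further genes of the contractile apparatus, were not called, at -0.23 (SE 0.14), -0.14 (SE 0.15) and -0.22 (SE 0.22), and each was lowest in belinostat replicate 17. The summed level of the 7 muscle and pericyte markers was 5862 to 7984 normalized counts under belinostat and 9306 to 10440 in vehicle. ACTG2 made up most of this sum and was the only called gene in it. RGS5, a pericyte marker of the same list, was at 419 to 502 and 349 to 429, and DES and KCNJ8 were at 3.24 or less in all 8 libraries. In these bulk libraries, fewer cells of a type and less RNA per cell cannot be told apart. Actin genes are close paralogs whose shared reads the estimated counts divide.

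Fibroblast surface markers were called in 6 of 16 tested. MCAM rose by 0.49 (SE 0.093), and ENG, CD9, PDGFRA and DPP4 fell, at -0.52 (SE 0.092), -0.29 (SE 0.059), -0.25 (SE 0.06) and -0.25 (SE 0.064), as did CD55. THY1 was not called, at -0.20 (SE 0.12). Among 32 axon guidance genes NRP1, a co-receptor for semaphorins and VEGF, stood at 85.0, 81.8, 101 and 63.3 under belinostat and 231, 155, 141 and 147 in vehicle, a log2 fold change of -1.02 (SE 0.19, adjusted p 8.01e-06). The netrin gene NTN1 fell, at -0.64 (SE 0.14) and the receptor gene ROBO1 at -0.59 (SE 0.15), and SEMA3C rose by 0.57 (SE 0.15).

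Among the remaining lists, the imprinted gene SGCE fell, at -0.90 (SE 0.18), the lipid carrier APOE at -0.59 (SE 0.10), the death receptor FAS at -0.31 (SE 0.072), the hexokinase gene HK2 at -0.34 (SE 0.086) and OSGIN1, a target of NRF2, at -0.51 (SE 0.14). PFKFB3, which sets the level of an activator of glycolysis, rose by 0.26 (SE 0.055).

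Of 21 genes for histone deacetylases, sirtuins and their corepressors 1 was called (4.76%, against 6.26% of all tested genes). This call, HDAC9 at -0.56, was lost in 7 alternatives. HDAC1, HDAC2, HDAC3, HDAC6, HDAC8 and HDAC10 had log2 fold changes of 0.015, 0.038, 0.024, -0.022, -0.066 and 0.0017, with 95% intervals of -0.053 to 0.084, -0.088 to 0.16, -0.11 to 0.15, -0.16 to 0.11, -0.23 to 0.10 and -0.15 to 0.15. DESeq2 and edgeR, which called 4.93% of its own tested genes, each called 0 genes in 8 lists, with these numbers at an unadjusted p under 0.05: 2 of 21 HOX genes, 2 of 30 interferon-stimulated genes, 3 of 15 MHC class I presentation genes, 3 of 24 DNA replication and mitosis genes, 1 of 30 cholesterol and fatty acid synthesis genes, 1 of 16 ATF4 targets, 0 of 24 histone acetylation and methylation enzymes and 0 of 4 textbook responders to deacetylase inhibition. Over all tested genes 2255 had such a p. CDKN1A, the cell cycle inhibitor that is the best known of those responders, was at 5772 to 8676 under belinostat and 5581 to 6206 in vehicle, at 0.19 (SE 0.1).

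Other genes of the 15 largest rises and 15 largest falls fell outside these families. SAMD11 and the long noncoding RNA LINC02593 are neighbours on chromosome 1 on opposite strands. SAMD11 stood at 549.9, 448, 323 and 591 under belinostat and 114, 184, 148 and 172 in vehicle (1.63 (SE 0.17, adjusted p 4.58e-18)), and LINC02593 at 604, 537, 465 and 690.5 and 195, 237, 206 and 216 (1.43 (SE 0.14, adjusted p 1.33e-21)). Both rose in all 4 libraries beyond the vehicle range. CORO2A, a coronin that binds actin, rose by 1.25 (SE 0.18), CPE, a carboxypeptidase of peptide hormone processing, by 1.24 (SE 0.28), and NPR3, the clearance receptor of natriuretic peptides, by 1.14 (SE 0.19). BCO2, which cleaves carotenoids, rose by 1.19 (SE 0.22), the stress-regulated SESN3 by 1.09 (SE 0.17), the synaptic adhesion gene NLGN3 by 1.07 (SE 0.25) and KIAA1755 by 1.07 (SE 0.22). Among the falls, ELOVL2, an elongase of polyunsaturated fatty acids, was at -1.12 (SE 0.14), the RNA-binding factor CELF2 at -1.10 (SE 0.15), the somatostatin receptor SSTR1 at -1.06 (SE 0.13) and LRRN4CL at -1.13 (SE 0.10). ADAMDEC1, a metalloprotease of gut mucosa, stood at 42.0, 73.3, 61.5 and 68.5 and 129, 144, 125 and 129, at -1.11 (SE 0.17, adjusted p 1.43e-08). FIBIN was at -1.11 (SE 0.32), and its call was lost in the fit of the 8 libraries (-1.10), without belinostat replicate 20 (-1.01) and without vehicle replicate 13 (-1.01).

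Called genes were also placed along the genome. Of 887 called genes with a position, 150 (16.9%) had a directly neighbouring tested gene called in the same direction. The same 150 genes were 1.07% of the 14074 tested genes with a position, which is not a background for the 16.9%. The share to be met without any clustering was not estimated. Among neighbouring pairs 79 were called in the same direction and 18 in opposite directions, and 6 runs held at least 3 genes. Beside the CC chemokine cluster, a run of 4 on chromosome 4 spanned 309 kb and fell: METAP1 at -0.45 (SE 0.064), ADH5 at -0.25 (SE 0.05), ADH1A at -1.0 (SE 0.25) and ADH1B at -0.96 (SE 0.14). ADH1B, an alcohol dehydrogenase that also oxidises retinol, went from 9759, 10100, 8815 and 7347 in vehicle to 3167, 5612, 4874 and 4816. The groups did not overlap, although ADH1A and ADH1B are close paralogs and their values carry that uncertainty. The other 4 runs rose. On chromosome 7, CHRM2, a muscarinic acetylcholine receptor gene, was at 13990, 12860, 11810 and 12910 under belinostat and 6561, 7465, 7537 and 6266 in vehicle, at 0.89 (SE 0.08, adjusted p 1.67e-25). Next to it PTN, the growth factor pleiotrophin, rose by 1.03 (SE 0.11) and DGKI, a diacylglycerol kinase, by 1.12 (SE 0.20). Without replicate 17, where DGKI was at 426 normalized counts, its change was 0.89. Also on chromosome 7, CAV1 and CAV2, which encode the caveolins of membrane pits, rose by 0.39 (SE 0.079) and 0.46 (SE 0.067) with their neighbour TES at 0.35 (SE 0.089). The remaining runs were SLC47A1 (0.62), ALDH3A2 (0.27) and ULK2 (0.28) on chromosome 17, and NPC1 (0.60), ANKRD29 (0.40) and LAMA3 (0.67) on chromosome 18. Without belinostat replicate 17, where it was highest, NPC1 was at 0.37. The call of ANKRD29 was lost in 4 alternatives.

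Levels in the unstimulated libraries are given for reference, as mean ± SD over 4 libraries. CCL11 was at 147 ± 29.7 normalized counts there, 226 ± 37.6 in vehicle and 3.83 ± 2.27 under belinostat. CCL2 was at 1204 ± 102, 1325 ± 136 and 271 ± 67.0, and APCDD1 at 668 ± 40.4, 1098 ± 220.2 and 184 ± 41.3. These belinostat levels lay below both other groups. MMP1 was at 299.8 ± 72.9 in unstimulated cells, 819 ± 242 in vehicle and 274 ± 139 under belinostat, and CXCL8 at 77.5 ± 10.3, 396 ± 146 and 235 ± 30.5. PRSS35 was at 54.1 ± 9.57, 41.8 ± 14.0 and 188 ± 37.6, IGFBP3 at 3520 ± 671, 3092 ± 694 and 9952 ± 2794, and CXCL14 at 4122 ± 368, 4810 ± 838 and 11750 ± 2068. In these 3 the belinostat level was above both other groups. The difference from unstimulated cells combines cytokines and compound. In the same DESeq2 fit it was -5.30 for CCL11 (adjusted p 1.73e-30), 1.79 for PRSS35 (adjusted p 7.26e-12), 1.60 for CXCL8 (adjusted p 1.62e-10) and -0.13 for MMP1 (adjusted p 0.882).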

How the data were processed

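RNA was measured in 16 libraries of Ccd18-Co, of which 8 belong to the comparison. Per the study's methods and the submitters' processing notes, the authors checked reads with FastQC 0.11.9 and MultiQC 1.14 and quantified them with kallisto 0.48.0, with hg38 named as the build. The transcriptome release and the way transcripts were summed to gene symbols are not given in the sources used here. The values the authors deposited are estimated counts, 1 per symbol and library, not scaled to library size. They were rounded to whole numbers here. All 16 value columns were mapped to samples by name. The unstimulated columns say none where the titles say DMSO.

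DESeq2 1.42.0 (R 4.3.3) was fitted to all 16 libraries with group as the only factor and median-of-ratios size factors. Belinostat was set against vehicle with the Wald test, with p adjusted by Benjamini-Hochberg after independent filtering at 0.05 and without shrinkage. Every adjusted p in the text comes from this test, except those for belinostat against unstimulated cells, which come from the Wald test in the same fit. Counts were divided by size factors to give normalized counts, and intervals are 95%. Depth was 14.4 to 18.8 M counts a library, and intervals do not cover error in dividing shared reads. Alternatives were edgeR 4.0.16 and limma-voom with TMM factors, fits of the 8 libraries, with TMM size factors, with a filter of 10 counts in 4 libraries, and without each library. Both tests were checked on simulated data.

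The comparison itself and the 45 gene lists were chosen with earlier results of these data known. Named genes were the 15 largest rises and 15 largest falls among called genes that averaged at least 50 normalized counts and whose groups did not overlap, the called members of each list with members that define it, the histone deacetylase genes, and genes in runs of at least 3 neighbours called in the same direction. A few genes that meet this rule are not reported here. Gene IDs and positions are from GENCODE v44 on GRCh38, looked up by symbol, and may differ from those the authors used. Promoters are from RefSeq, 11214 of them matched to tested genes by symbol.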

Additional observations from a re-analysis of the deposited data

Results flagged for a closer look

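Of the genes named in the text, 208 were searched for a library far from the other 3 of its group, by Dixon's test at the 95% level in 416 groups. Chance flags about 1 in 20 groups, and 35 were flagged, 21 of them in belinostat replicate 17 and 6 in vehicle replicate 16. The values below are normalized counts in that library, with the range of the other 3 in brackets.

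Belinostat replicate 17 lay below its group in IGFBP3 at 5769 (11120 to 11570), ADAMTS8 at 51.5 (163 to 184), COL1A1 at 68880 (89170 to 92350), FBLN1 at 13860 (19120 to 19700), LOXL1 at 970 (1496 to 1600) and C1S at 43530 (46990 to 47510). Further such genes were BNC2 at 1180 (1672 to 1768), ACTG2 at 3487 (4330 to 4424), SEMA3C at 209 (233 to 237), TES at 812 (1063 to 1089) and PER1 at 155 (196 to 197). It lay above its group in DGKI at 426 (244 to 261), MMP1 at 482 (189 to 216), MMP3 at 1140 (324 to 457), BMP2 at 2512 (1681 to 1796), CSF1 at 4392 (3832 to 3881) and BCL3 at 502 (474 to 478). Further such genes were PTGS2 at 208 (65.4 to 75.7), APOE at 404 (356 to 364), HDAC6 at 787 (711 to 712) and NPC1 at 4971 (2652 to 3039).

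Vehicle replicate 16 lay below its group in BMPR2 at 4424 (5031 to 5150) and IL6ST at 22830 (26220 to 26490), and above it in PTGES at 657 (540.4 to 550.5), CST1 at 320 (122 to 142), NR2F1 at 6997 (5661 to 5785) and HDAC8 at 352 (323 to 326). The other libraries flagged were belinostat replicate 19 in TGFB1I1 at 2213 (2248 to 2254), vehicle replicate 13 in CCL8 at 32.4 (13.4 to 16.6), NR2F2 at 3045 (3355 to 3369), NRP1 at 231 (141 to 155) and CIART at 32.4 (49.4 to 51.6) and vehicle replicate 14 in VIM at 47990 (46370 to 46510), DKK1 at 41.2 (28.6 to 29.5) and TGFB1I1 at 2809 (2601 to 2631).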

How the results depend on the processing

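Both counts of calls stayed within 1.5 times their values in the report under all 13 alternatives. The number of called genes was 711 in edgeR, 705 in limma-voom, 750 in the fit of the 8 libraries, 897 with TMM size factors (419 higher and 478 lower) and 893 with the filter on low counts. Leaving out each library in turn gave 664 (without vehicle replicate 16) to 1127 calls (without belinostat replicate 17). The number of calls beyond 2-fold ran from 66 to 78 in the other fits and from 63 to 93 without a library. No named gene changed direction while called. Over 234 genes and the 13 alternatives, 2714 values stayed on their side of the threshold, 315 lost a call and 9 gained one. Of the list medians 632 moved by less than the spread between libraries and 5 by more. The median of all tested genes shifted at -0.0065 to 0.0046 on the log2 scale. No paired analysis was possible because the groups compared share no replicate numbers. Depth limits genes of few counts: of the 74 calls beyond 2-fold, 35 had a mean under 50 normalized counts.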

Other observations

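A further 5 gene groups were written down after their first values had been seen, so their counts are descriptions. Among 16 tested genes of retinoid metabolism 8 were called. BCO2 and CYP26B1, the enzyme that clears retinoic acid, rose by 1.19 and 0.62, and the call of DHRS3 at 0.37 was lost in 5 alternatives. The dehydrogenase genes ADH1A, ADH1B, ADH5 and RDH10 fell, RDH10 at -0.48 (SE 0.12). Of 7 tested genes of the aryl hydrocarbon receptor, a ligand-activated transcription factor, 3 rose: AHR itself by 0.50 (SE 0.10), and its textbook targets TIPARP by 0.47 (SE 0.097) and CYP1B1 by 0.83 (SE 0.17, adjusted p 4.22e-05). CYP1A1, the target most often used as its readout, was not called, at 0.07 (SE 0.62).

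Of 16 tested clock genes 3 were called higher and 1 lower. BMAL1, the activator of the circadian loop, fell, at -0.41 (SE 0.096), and PER3 and NR1D2, which its product drives, rose by 0.39 (SE 0.10) and 0.36 (SE 0.075). The call of CIART at 0.60 was lost in 8 alternatives, and CLOCK, PER1, PER2 and NR1D1 were not called, at -0.017 (SE 0.077), 0.27 (SE 0.13), -0.17 (SE 0.14) and -0.06 (SE 0.10). The time of day at which RNA was taken is not given in the sources used here. All 7 tested genes of 8 simple and basal keratins had positive values and 3 were called: KRT7 at 1.06 (SE 0.25), KRT18 at 0.84 (SE 0.16) and KRT8 at 0.36 (SE 0.078). KRT7 stood at 203, 332, 294 and 360.3 under belinostat and 129, 198, 175 and 66.4 in vehicle. KRT20, the intestinal epithelial keratin, was at 0 in all 8 libraries. Of 12 tested tubulin and cytoplasmic actin genes 6 were called, all lower, among them TUBA1B at -0.36 (SE 0.066), TUBA1C at -0.39 (SE 0.07) and ACTG1 at -0.47 (SE 0.091). These families have close paralogs and pseudogenes whose shared reads the estimated counts divide.

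No symbol of a mitochondrial gene was in the table, but 36 nuclear pseudogene copies of such genes were tested. All 36 had positive values, with a median log2 fold change of 0.30. Of them 11 were called higher, against 3.12% of all tested genes. Copies of the same gene may share reads, which the estimated counts divide, so the 36 values are not separate observations. Whether these counts came from the copies or from mitochondrial transcripts was not tested. Their summed level was 295900 to 374800 normalized counts under belinostat and 262100 to 304700 in vehicle. Belinostat replicate 17, the lowest of its group, lay within the vehicle range.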
